A study of Rattus norvegicus with 6 samples.

Results

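Liver X receptors are nuclear receptors that bind oxysterols and, paired with a retinoid X receptor, switch on genes that move cholesterol out of cells. Nr1h3 encodes LXR alpha, which is abundant in liver, and Nr1h2 encodes LXR beta, which is present in most tissues. The transporters Abca1 and Abcg1 pass cholesterol to lipoproteins, Abcg5 and Abcg8 form the pump that secretes sterols into bile, Mylip encodes the ubiquitin ligase IDOL, and Scarb1 encodes SR-BI, the receptor that takes cholesterol from high-density lipoprotein into hepatocytes. These 8 genes were chosen by name as the receptors and sterol efflux genes of the pathway, with earlier results of these data known. Every probe set annotated with exactly 1 of the 8 symbols was taken, which gave 15 of the 31099 probe sets on the array: 4 for Abca1, 3 for Abcg1, 2 each for Nr1h2 and Scarb1, and 1 each for Nr1h3, Abcg5, Abcg8 and Mylip.

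The 6 arrays measured total liver RNA from hypercholesterolemic rats (Rattus norvegicus). All rats ate a fat-rich diet for 30 d, to bring on high cholesterol, and then for a further 30 d with 1 ml of saline daily into the stomach. In the high-fat group (n = 3) the saline was plain, and in the probiotic group (n = 3) it carried Lactobacillus casei Zhang, a lactic acid bacterium. There was no group on ordinary feed among the samples, and the labels name no strain, sex or age. The labels do not say that each sample came from a separate rat, so the p-values measure the spread between these samples, which may be technical. A signal is the deposited intensity of a probe set on a linear scale, and a log2 signal is log2(intensity + 16) after quantile normalization. Levels of different probe sets are not comparable, since each binds its target with its own efficiency.

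The arrays had median signals of 90.4 to 147, and their number limits the precision. The leading principal component held 35.5% of the variance. Its scores were -4.09, -51.5 and -26.2 in probiotic samples 1, 2 and 3 and 3.07, 75.5 and 3.3 in high-fat samples 1, 2 and 3. The groups did not overlap on it, and both sample 2 arrays lay at its ends. Transcript integrity was read from control probe sets. For the Actb control probe sets, the log2 signal at the 3' end minus that at the 5' end, which widens as RNA shortens, was 2.08, 3.07 and 2.39 in probiotic samples 1, 2 and 3 and 1.95, 1.48 and 1.97 in high-fat samples 1, 2 and 3 (exact two-sided permutation p = 0.1, the smallest that 3 against 3 allows), so the groups did not overlap. That of Gapdh was 0.667, 1.58 and 1.27 against 0.533, 0.496 and 0.754, with overlap (exact two-sided permutation p = 0.2). The widest Actb gap was in probiotic sample 2 and the narrowest in high-fat sample 2, the arrays at the ends of the leading component. Whether that component reflects RNA integrity or the treatment was not tested. Hepatocyte markers were bright in both groups, with a mean log2 signal of 15.06 to 15.5 in the probiotic and 15.06 to 15.44 in the high-fat samples over 7 of 8 genes. Of the marker lists of other cells, endothelial genes had 3 of 5 measured members lower in the probiotic group, stellate cell genes 4 of 6 and cholangiocyte genes 0 of 3, while blood genes had 4 of 4 higher. Limma called 0 of these at the adjusted threshold. At an unadjusted p under 0.05, which 6.85% of all probe sets tested reached, it called 3 of the 4 blood genes and no gene of the other 3 lists. Blood genes had a median log2 difference of 0.831, the largest in size of the cell type lists. Their summed signal was 31100 to 54586 in the probiotic and 20163 to 26736 in the high-fat samples. The part of blood in the member values was not tested.

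Promoter sequences were set beside the values. RefSeq windows, from 250 bases before to 50 bases after a gene's start in build GRCr8, were found for 6 of the 8 genes; Abcg1 and Scarb1 had none in the table used. The windows of Abcg5 and Abcg8 were the same DNA read from opposite strands: they shared 295 of 300 bases, because the annotated starts of the genes point away from each other and lie 206 bases apart. The whole stretch between the starts, chr6:15717731-15717935 on the plus strand, is shown because both transporter genes lie against it, Abcg8 to its left and Abcg5 to its right. Capitals mark, from left to right, a TATAAA match, a GATAAG match and ATTGG, which reads CCAAT on the other strand.

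Abcg5-Abcg8: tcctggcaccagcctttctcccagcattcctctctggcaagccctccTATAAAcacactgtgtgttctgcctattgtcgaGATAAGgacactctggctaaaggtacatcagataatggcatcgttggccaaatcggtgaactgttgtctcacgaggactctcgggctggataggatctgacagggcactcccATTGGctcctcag

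GATAAG, the letters that GATA factors recognise, was found in 7.05% of the 33469 windows of 300 bases when both strands were searched. TATAAA was found in 14.2% and CCAAT in 37.5%. None of the 6 member windows, those of Abcg5 and Abcg8 included, held AGGTCA, the letters of a nuclear receptor repeat, which 16.2% of windows held. LXR binds a direct repeat of these letters with a spacer of 4 bases, called DR4, written out as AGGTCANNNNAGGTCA. Allowing up to 3 mismatches outside the spacer, DR4 was matched in 21.9% of all windows and, among the 6 member windows, only in that of Abca1. The match lay 70 to 55 bases before the Abca1 start and had 3 mismatches. The RefSeq gene span begins further upstream than the start used for the window, so the match lies inside that span. It is shown with 5 bases on each side, from chr5:72596523-72596548 on the plus strand, which is the strand opposite to the gene, with the letters outside the spacer in capitals.

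Abca1: cgccgGGGTTActacCGGTCAaacgc

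The Abca1 window also held CACGTG, the E-box letters, which 6.42% of windows held, and TATAAA starting 32 bases before the start. These matches describe letters in the windows and say nothing of which factor bound them in these livers.

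**Figure D1:**
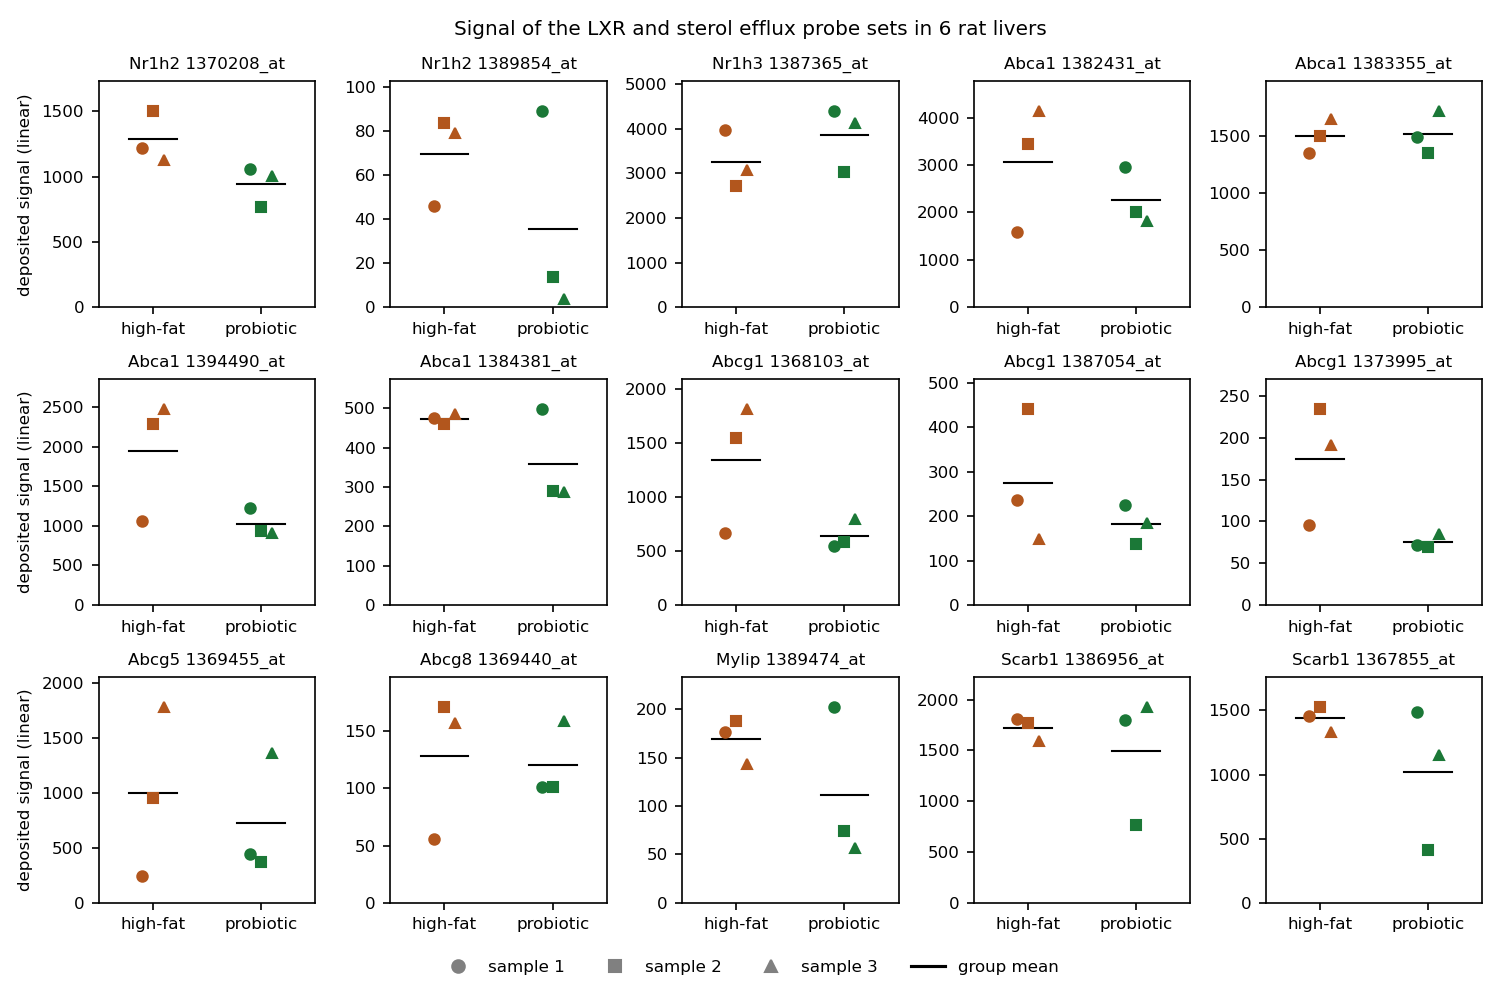
Deposited signal on a linear axis from 0 in each of the 3 high-fat (brown) and 3 probiotic (green) samples, for the 15 probe sets of the 8 genes; symbols mark the sample number and black lines the group means. In the plots of Abcg1 1368103_at and of Abca1 1394490_at, high-fat samples 2 and 3 lie above the other 4 arrays, and in both Scarb1 plots probiotic sample 2 lies below the other 5.

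Setting probiotic against high-fat samples asks how the bacterium relates to liver transcripts on 1 diet, and none of these genes passed the test across all probe sets. Abcg1 and Abca1 had the lowest p-values, with lower means in the probiotic group, and the bile pump genes Abcg5 and Abcg8 differed more within groups than between them. Nr1h3 had a slightly higher mean in the probiotic group and Nr1h2 a lower one. Limma called 4 of the 18609 probe sets tested at an adjusted p under 0.05 (0.0215%), and 0 of the 14 member probe sets that were bright enough to be tested. At an unadjusted p under 0.05 it called 3 of the 14, where the background was 6.85% of all probe sets tested. These were Abcg1 1368103_at and 1373995_at and Abca1 1394490_at, all highest in high-fat samples 2 and 3. Of the 15, 12 had a lower mean in the probiotic group, as had 11 of the 14 tested, against 49.6% of all probe sets tested. The members were chosen with earlier results known, and probe sets of 1 gene are not replicates, so these shares are a description. By the brightest probe set of each gene, 6 genes had lower and 2 higher means, with a median log2 difference of -0.342, where the median over all probe sets tested was 0.00412. Leaving out both sample 2 arrays gave a median of 0.0134, and adjusting for the Actb gap gave 0.12. That gap did not overlap between the groups, so on 6 arrays it cannot be told apart from the treatment. Values adjusted for it, here and below, are therefore not differences corrected for RNA quality. With this adjustment limma called 422 probe sets at an unadjusted p under 0.05, against 1274 without it, and the smallest member adjusted p was 0.999.

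Among the receptors, Nr1h3 signals were 4396, 3039 and 4124 in probiotic samples 1, 2 and 3 and 3976, 2717 and 3078 in high-fat samples 1, 2 and 3. The groups overlapped, since probiotic sample 2 lay below high-fat samples 1 and 3. The log2 signal was 11.88 ± 0.299 against 11.67 ± 0.272 (SD, n = 3 each), a difference of 0.209 (95% interval -0.268 to 0.687; limma adjusted p = 0.825). The difference was 0.103 when probiotic sample 1 was left out, 0.382 when probiotic sample 2 was, and 0.433 when adjusted for the Actb gap. The interval covers changes of LXR alpha transcript in either direction.

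Nr1h2 signals by probe set 1370208_at were 1062, 763 and 1002 in the probiotic and 1220, 1502 and 1130 in the high-fat samples. Every probiotic sample lay below every high-fat sample. This absence of overlap was seen for 2 of the 14 tested member probe sets, against 12.7% of all probe sets tested. The log2 difference was -0.452 (95% interval -0.946 to 0.043; limma adjusted p = 0.732), or 1.37-fold less. Adjusted for the Actb gap it was -0.0438, and it ran from -0.553 to -0.31 with any single array left out. The second Nr1h2 probe set, 1389854_at, was too dim to be tested. It read 89.3, 13.7 and 3.6 in the probiotic and 46, 83.8 and 79.4 in the high-fat samples, so the groups overlapped and single arrays set its mean.

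Their heterodimer partners differed from each other in direction. Rxra, which encodes the retinoid X receptor alpha that dominates in liver, had signals of 392, 198 and 225 in the probiotic and 520, 560 and 487 in the high-fat samples. All probiotic values lay below all high-fat values, and the log2 difference was -0.936 (SE 0.273; limma adjusted p = 0.726), or 1.91-fold less. Rxrb had 264, 288 and 253 in the probiotic and 195, 69.8 and 137 in the high-fat samples, again without overlap but in the opposite direction, with a log2 difference of 1.10 (SE 0.414; limma adjusted p = 0.726). Absence of overlap was found for 12.7% of all probe sets tested. The Rxrb difference was 0.641 without high-fat sample 2 and 0.578 without both sample 2 arrays, and adjusted for the Actb gap Rxra had -0.47 and Rxrb 0.478. The difference between Rxra and Rxrb was not tested, and each gene has 1 probe set here. Rxrg had 0.0422. The list of partners and coregulators had 7 of 9 genes measured above the filter, 3 lower and 4 higher in the probiotic group, and limma called 0 at the adjusted threshold and 2, Rxra and Rxrb, at an unadjusted p under 0.05, against 6.85% of all probe sets tested (median log2 difference 0.0422).

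The efflux pump Abca1, which loads cholesterol onto lipid-poor apolipoprotein A-I, was read by 4 probe sets that did not give the same picture. The brightest, 1382431_at, read 2965, 2009 and 1817 in the probiotic and 1577, 3445 and 4139 in the high-fat samples. High-fat sample 1 was the lowest of the 6 arrays and high-fat samples 2 and 3 the highest. Its log2 difference was -0.38 (95% interval -1.16 to 0.396; limma adjusted p = 0.804), and it was -0.793 without high-fat sample 1, -0.134 without high-fat sample 3 and 0.0408 when adjusted for the Actb gap.

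Probe set 1394490_at also had high-fat samples 2 and 3 highest, at 1224, 933 and 905 in the probiotic and 1059, 2289 and 2481 in the high-fat samples. Only high-fat sample 1 fell among the probiotic values. The log2 difference was -0.842 (95% interval -1.56 to -0.127; unadjusted p = 0.0257, limma adjusted p = 0.726), and -0.477 adjusted for the Actb gap. Probe set 1383355_at, by contrast, was nearly level, at 1487, 1346 and 1717 against 1352, 1496 and 1647, with a difference of 0.00313 (95% interval -0.415 to 0.421). Probe set 1384381_at had 499, 289 and 288 against 476, 460 and 486, so probiotic sample 1 lay with the high-fat samples, and its difference was -0.397 (95% interval -0.976 to 0.182), with -0.629 when that sample was left out and -0.119 after adjustment for the Actb gap.

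Over the 6 arrays the first pair, 1382431_at and 1394490_at, had a Pearson r of 0.907 (exact permutation p = 0.0139) and a Spearman rho of 0.812 (p = 0.0722), and r was 0.926 without the 2 arrays farthest from the median. Among 39 correlations computed between member probe sets the adjusted p was 0.181 for r and 0.88 for rho. The other 5 pairs of Abca1 probe sets had r from -0.0236 to 0.648. Where each probe set lies on the transcript was not analysed here.

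Abcg1, which passes cholesterol to mature high-density lipoprotein and is high in macrophages, had the largest difference among the brightest probe sets. Probe set 1368103_at read 542, 581 and 795 in the probiotic and 664, 1540 and 1814 in the high-fat samples. High-fat samples 2 and 3 stood far above the other 4 arrays, and high-fat sample 1 lay within the probiotic range. The log2 signal was 9.334 ± 0.28 against 10.28 ± 0.759 (SD, n = 3 each), a difference of -0.945 or 1.93-fold less (95% interval -1.75 to -0.144; unadjusted p = 0.0254, limma adjusted p = 0.726). The difference was -1.39 without high-fat sample 1 (adjusted p = 0.186, the smallest over any member and setting) and -0.686 without high-fat sample 3, and it was -0.717 without both sample 2 arrays.

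The dimmer probe set 1373995_at gave nearly the same difference, -0.934 (95% interval -1.84 to -0.0276; unadjusted p = 0.0446, limma adjusted p = 0.726). Its signals were 72.3, 69.1 and 84.9 against 95.8, 234.9 and 192, with no overlap between the groups. Its r with 1368103_at was 0.987 over the 6 arrays (exact permutation p = 0.00972, adjusted 0.181) and 0.812 without high-fat samples 2 and 3; rho was 0.886 (p = 0.0333, adjusted 0.65). Probe set 1387054_at did not follow them. It read 226, 138 and 185 against 236, 441 and 149, so that high-fat sample 3, the highest array for 1368103_at, was among the lowest here, and its difference was -0.45 (95% interval -1.27 to 0.369), with -0.0934 when high-fat sample 2 was left out and 0.246 after adjustment for the Actb gap.

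**Figure D2:**
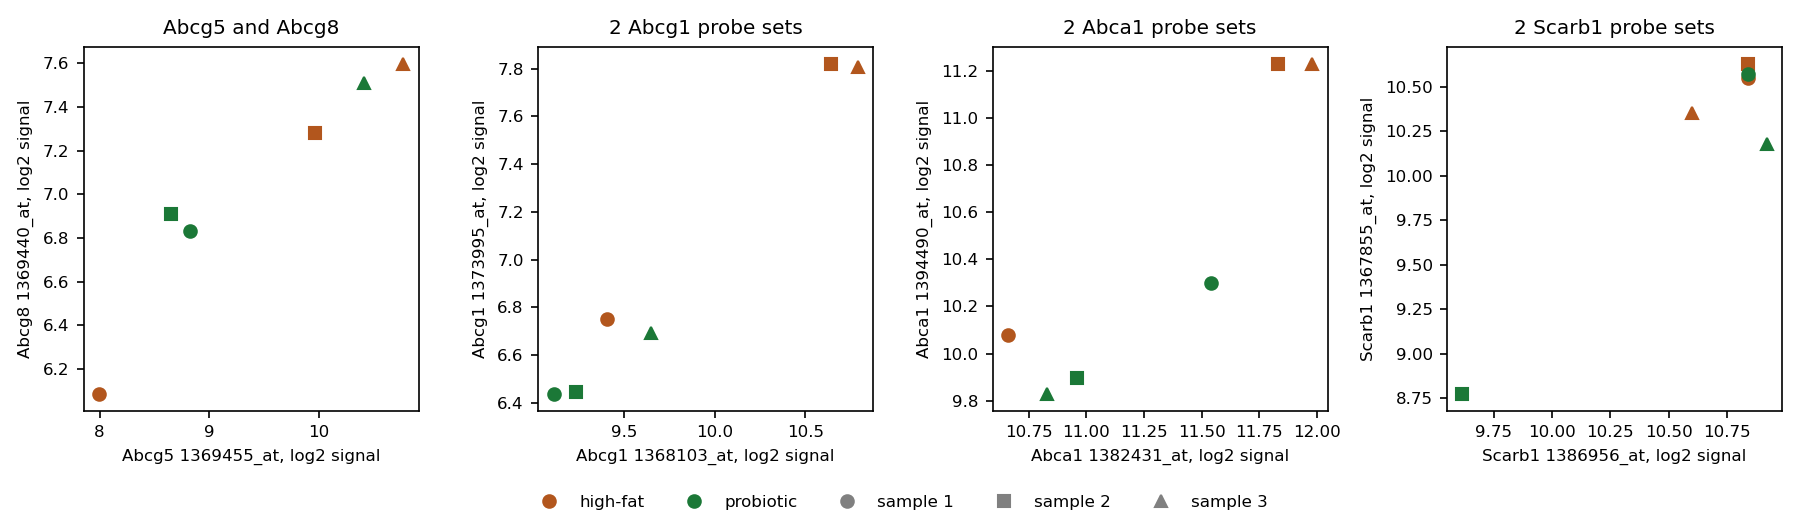
Log2 signal of 1 probe set against another in the 6 samples, coloured by group (brown high-fat, green probiotic) with symbols for the sample number. Abcg5 and Abcg8 lie along a line from high-fat sample 1 to high-fat sample 3 with the groups mixed, the pairs of Abcg1 and Abca1 probe sets rise towards high-fat samples 2 and 3, and the Scarb1 pair is spread out by probiotic sample 2 alone.

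Markers of Kupffer cells and other macrophages, which also express Abca1 and Abcg1, had lower means in the probiotic group. All 10 measured of 12 listed genes had lower means there by their brightest probe sets, against 49.6% of all probe sets tested. Their median log2 difference was -0.401, and second probe sets gave 0.0197 for Aif1 and -0.175 for Cd5l. Limma called 0 at the adjusted threshold and 1 at an unadjusted p under 0.05 (6.85% of all probe sets tested). Their mean log2 signal was 9.957, 9.853 and 10.2 in probiotic samples 1, 2 and 3. It was 10.29, 10.55 and 10.35 in high-fat samples 1, 2 and 3, without overlap. Probiotic sample 2 was the lowest and high-fat sample 2 the highest, the arrays with the widest and the narrowest Actb gap (3.07 and 1.48). No value adjusted for that gap is given for these markers. Their summed signal was 13336 to 16639 against 16340 to 21133. No marker was near 0: Clec4f, a lectin of rat Kupffer cells, had a log2 signal of 12.03 ± 0.208 against 12.22 ± 0.455. High-fat sample 1 lay above every probiotic sample in the marker mean, as it did for Abcg1 1373995_at. For Abcg1 1368103_at it lay within the probiotic range, and for Abca1 1382431_at it was the lowest array. The part of macrophages in the Abcg1 and Abca1 values was not tested. In whole liver RNA, fewer cells of a type and less RNA per cell cannot be told apart.

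The bile pump genes had their high and low values in the same arrays, in both groups. Abcg5 signals were 444, 374 and 1363 in the probiotic and 248, 955 and 1787 in the high-fat samples. Probiotic sample 3 and high-fat samples 2 and 3 were high, and high-fat sample 1 was the lowest, so the lowest and the highest arrays both belonged to the high-fat group. Abcg8 signals were 101, 100.8 and 158.7 against 55.9, 171.4 and 157.4, with the same 3 arrays high and the same array lowest.

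The log2 difference was -0.28 for Abcg5 (95% interval -1.81 to 1.25; limma adjusted p = 0.944) and 0.0967 for Abcg8 (95% interval -0.941 to 1.13; adjusted p = 0.972). Both intervals reach past 0.9 log2 units in each direction. The sign of Abcg5 turned without probiotic sample 2 or high-fat sample 3, up to 0.311, and it was -1.07 without high-fat sample 1. For Abcg8 the range with 1 array left out was -0.354 to 0.399, with the sign turning without probiotic sample 3 or high-fat sample 1.

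Between Abcg5 and Abcg8, the pair that shares the stretch of DNA shown above, Pearson r was 0.953 (exact permutation p = 0.00278; adjusted p = 0.108 over the 39 correlations). Spearman rho was 0.943 (p = 0.0167; adjusted 0.65). With the 2 arrays farthest from the Abcg5 median left out, high-fat samples 1 and 3, r was 0.98, and over deviations from the group means it was also 0.98. Over all arrays it was the pair of different member genes with the highest r, followed by Abcg1 with Abcg5 at 0.758 (exact permutation p = 0.0958). Over deviations from the group means, Abcg1 had r of 0.991 with Abcg8 and 0.947 with Abcg5, so the highest r there was that of Abcg1 with Abcg8. Points share arrays, so whatever sets 1 array apart enters both genes.

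Mylip, whose product IDOL marks lipoprotein receptors for breakdown, read 203, 74.6 and 56.7 in the probiotic and 176, 188 and 143 in the high-fat samples. Probiotic samples 2 and 3 lay below the rest, while probiotic sample 1 was the highest of all. The high-fat log2 values were close together, at 7.489 ± 0.044 (SD, n = 3), and the probiotic ones were not, at 6.839 ± 0.807 (SD, n = 3). The log2 difference was -0.65 (95% interval -1.62 to 0.319; limma adjusted p = 0.755), -1.11 when probiotic sample 1 was left out and -0.347 when probiotic sample 3 was, and -0.145 when adjusted for the Actb gap. Among receptors that IDOL degrades, Vldlr had -0.445 by its brightest probe set and 0.344, -0.658 and -0.724 by 3 others. The first did not pass the test, and the 3 others were below the filter and were not tested. Lrp8 was below the filter.

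Scarb1 was level in the high-fat samples and low in 1 probiotic sample. By 1386956_at the signals were 1795, 766 and 1931 in the probiotic and 1805, 1766 and 1588 in the high-fat samples, and by 1367855_at they were 1491, 412 and 1152 against 1459, 1530 and 1329. Probiotic sample 2, the array with the widest Actb gap, was the lowest by both. The log2 differences were -0.304 (95% interval -1.04 to 0.432; limma adjusted p = 0.836) and -0.671 (95% interval -1.57 to 0.232; adjusted p = 0.74). Without probiotic sample 2 they were 0.118 and -0.136, and adjusted for the Actb gap they were 0.481 and 0.415. The 2 probe sets had r = 0.951 over the 6 arrays (exact permutation p = 0.0597, adjusted 0.582), and rho was 0.429 (p = 0.419). The high r rests on probiotic sample 2, which lay far below the rest by both. Without it and high-fat sample 3, r was -0.978. That value rests on probiotic sample 3, since the other arrays left all had a log2 signal of 10.84 by 1386956_at.

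**Figure D3:**
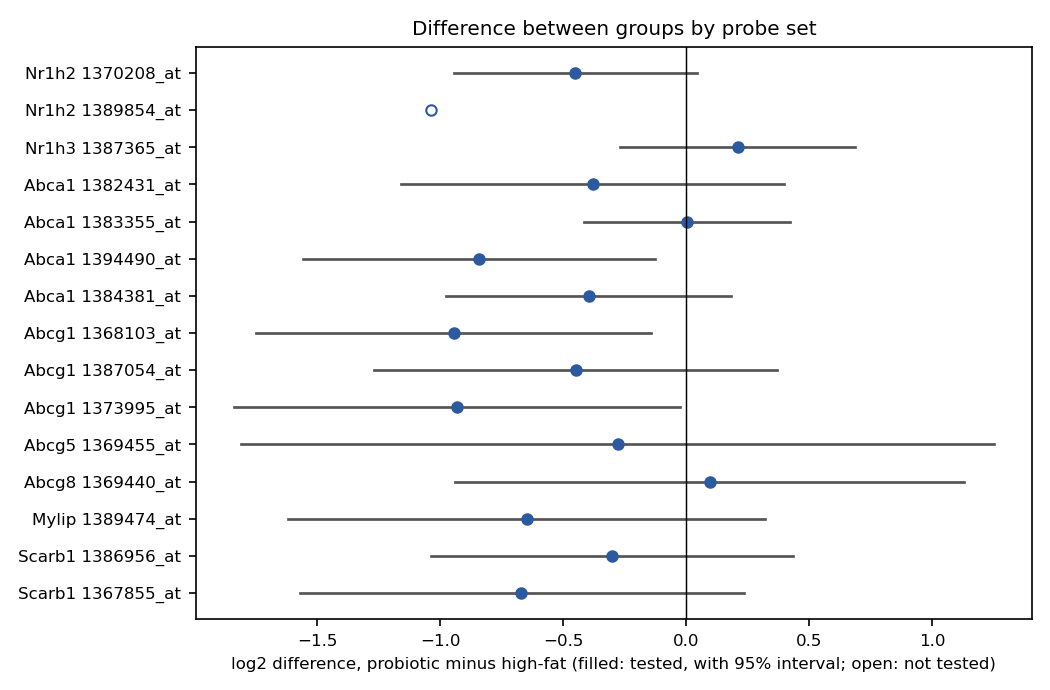
Log2 difference, probiotic minus high-fat, for each of the 15 probe sets, with the 95% interval of the fit for the 14 tested and an open symbol for the Nr1h2 probe set below the filter. The intervals of Abca1 1394490_at, Abcg1 1368103_at and Abcg1 1373995_at lie below 0 before adjustment, and those of Abcg5 and Abcg8 are among the widest.

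**Figure D4:**
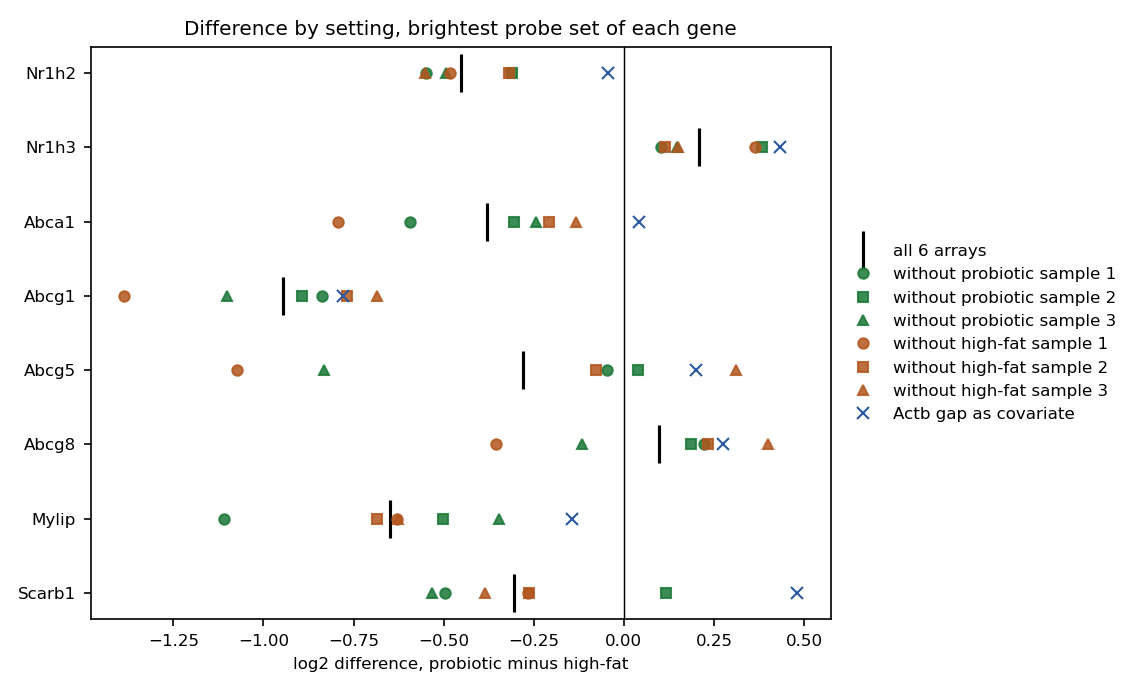
Log2 difference of the brightest probe set of each of the 8 genes with all arrays (black bar), with each array left out (brown or green symbols) and adjusted for the Actb gap (blue cross). Nr1h2, Abcg1 and Mylip stay below 0 in all 8 of these fits, Nr1h3 stays above 0, and Abca1, Abcg5, Abcg8 and Scarb1 lie on both sides.

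None of the other genes of the pathway passed the test. Of the 14 other LXR targets listed, 13 were measured, 9 with lower and 4 with higher means in the probiotic group, and limma called 0 at the adjusted threshold and 1, Acaca, at an unadjusted p under 0.05, a share near the 6.85% of all probe sets tested (median log2 difference -0.0319). Acaca had -0.771 (SE 0.297; limma adjusted p = 0.726), between -1.05 and -0.556 with any single array left out. A second Acaca probe set had -1.18 (adjusted p = 0.728), and no value adjusted for the Actb gap is given for this gene. Srebf1, the lipogenic transcription factor that LXR induces, had -0.091 (SE 0.282). The stearoyl-CoA desaturase Scd had -0.335 (SE 0.749), with a signal of 438 in probiotic sample 2 against 1952 to 5164 elsewhere, and 0.761 without that sample. Fasn, the fatty acid synthase, had -0.683 (SE 0.416; 0.0847 by another probe set), and the phospholipid remodelling enzyme Lpcat3 had -0.679 (SE 0.313; -0.07 by another). Fasn and Lpcat3 had 0.0575 and 0.0857 when adjusted for the Actb gap.

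Apoe, an apolipoprotein that LXR raises in macrophages, was bright and level at 15.81 ± 0.0724 against 15.79 ± 0.137 (SD, n = 3 each), a difference of 0.0224 that was -0.0948 with median centring and -0.143 without normalization. A second Apoe probe set, below the filter and not tested, gave -0.793. The phospholipid transfer protein Pltp had -0.0319 (SE 0.267). Cyp7a1, which starts the conversion of cholesterol to bile acids and is an LXR target in rodents, had signals of 960 to 11728 in the probiotic and 4710 to 8913 in the high-fat samples, a difference of -0.347 (SE 0.793).

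Enzymes that make or break oxysterols, the ligands of LXR, had 3 of 6 genes above the filter, 3 with higher means and 0 called by limma, adjusted or unadjusted (median log2 difference 0.257). Cyp27a1, which makes an oxysterol from cholesterol, read 18428, 21077 and 20232 in the probiotic and 16478, 18779 and 16471 in the high-fat samples. On the normalized log2 scale the groups did not overlap, and the difference was 0.257 (SE 0.133; limma adjusted p = 0.735), between 0.191 and 0.346 with any single array left out and 0.127 adjusted for the Actb gap. Cyp7b1 had 1.06 (SE 0.628). Another oxysterol-making enzyme, Ch25h, was below the filter, as were Cyp46a1 and Sult2b1. These were not tested and had lower means in the probiotic group, at -0.415, -0.107 and -1.26, with 0.43 by a second Sult2b1 probe set. Among partners of high-density lipoprotein and SR-BI, 5 of 6 measured genes had higher and 1 had lower means, and limma called 0, adjusted or unadjusted (median log2 difference 0.0497). Apoa1 had 0.0163 (SE 0.116), which was -0.11 with median centring and -0.158 without normalization, and Pdzk1, which encodes a scaffold that holds SR-BI at the hepatocyte surface, had 0.257 (SE 0.411; -0.242 without high-fat sample 2).

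**Figure D5:**
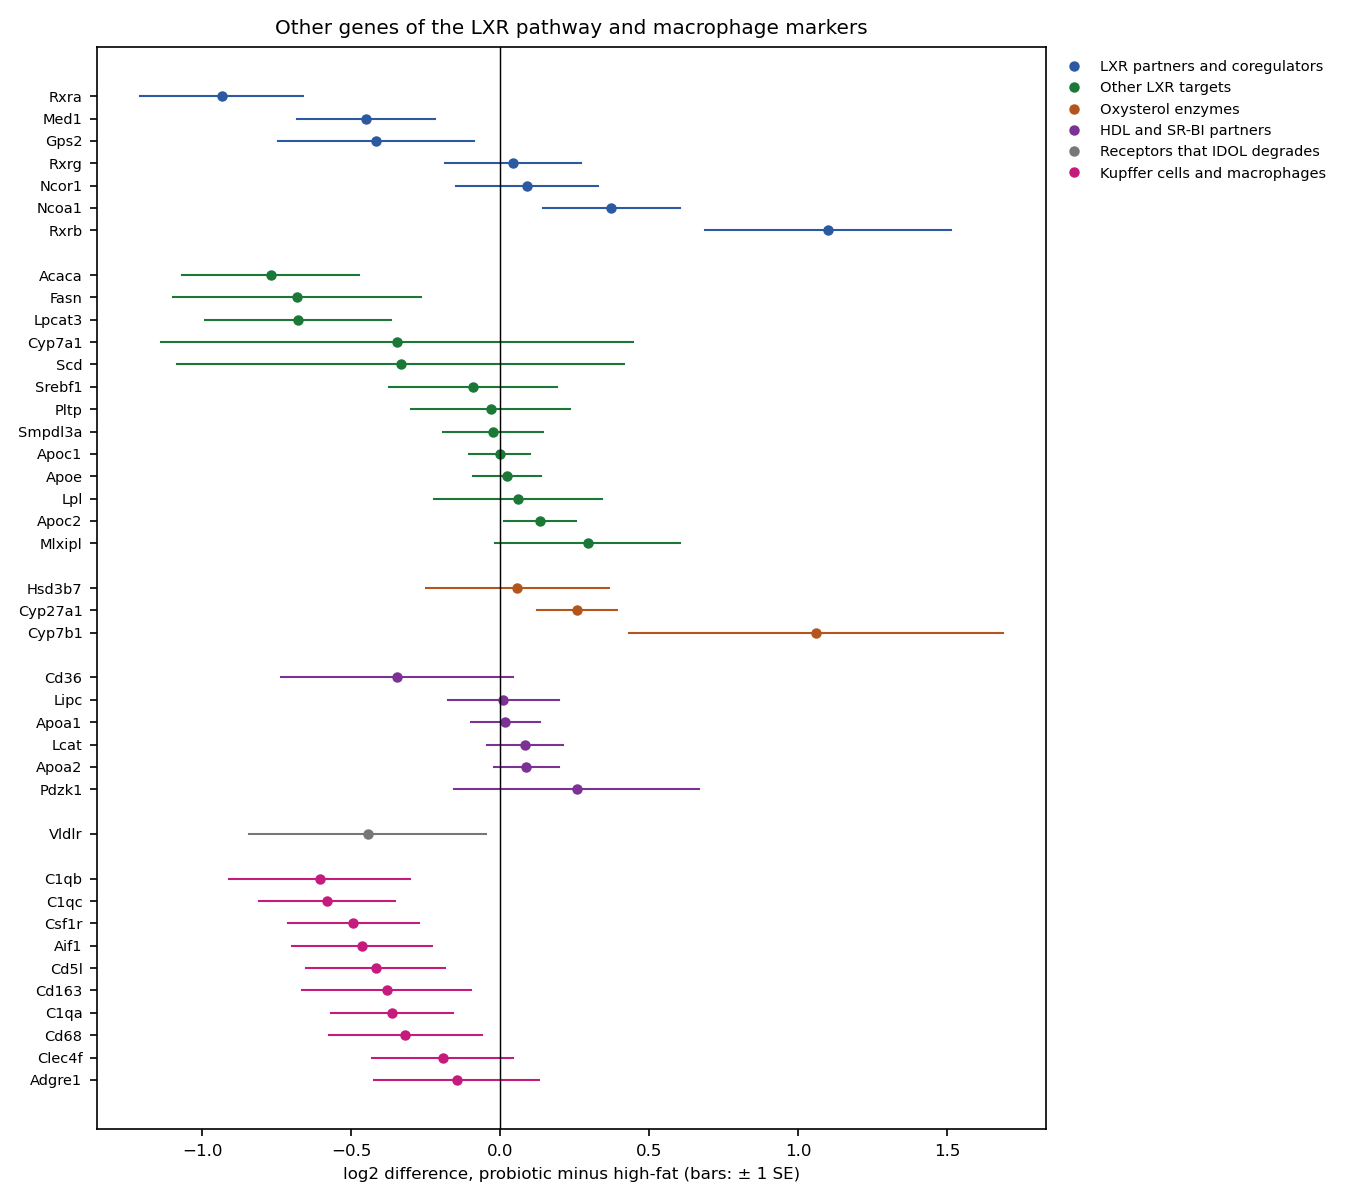
Log2 difference, probiotic minus high-fat, with bars of 1 SE, for the genes of the 5 pathway lists and the macrophage markers measured above the filter, by the brightest probe set. Rxra and Rxrb lie at opposite ends of the partner list, and all 10 macrophage markers lie below 0.

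For likeness of pattern over the 6 arrays, 10561 other genes were ranked by Pearson r with 3 members, as a description. Nr1h3 was most like Bco1 (0.997) and Gip (0.995), with 41 genes above 0.95. Abca1 by 1382431_at was most like Tp53i13 (0.979) and Rras (0.977), with 13 above 0.95, and Abcg5 was most like Atp6v0c (0.987) and Gtf2a1 (0.974), with 6 above 0.95. With 6 arrays and so many genes, high values of r are common.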

How the data were processed

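Biotin-labelled cRNA from 8 ug of Trizol-extracted liver RNA went onto Affymetrix arrays read in 1 colour, per the labels' protocols. Each array has a linear intensity for every probe set, deposited by the authors with software and settings not given in the sources used here. On the values, the mean after trimming 2% at each end was 500 on every array, while array medians of log2(intensity + 16) lay between 6.73 and 7.35, so log2 values were quantile normalized, which removes differences in overall distribution. Probe sets were named by the platform annotation where it gave 1 symbol (20826 of 31042 other than the 57 controls), updated through gene identifiers to RefSeq (assembly GRCr8), with 0 symbols changed. Probe sets with a mean at or above the 40th percentile (18609) were tested with limma 3.58.1 in R 4.3.3 (lmFit, eBayes with trend, two-sided, Benjamini-Hochberg over all tested). Folds come from log2(intensity + 16), so those of dim probe sets are understated. For each listed gene the brightest probe set was used. The members, lists, named genes (the 8 members, 12 fixed pathway genes, not all of them reported here, and any listed gene without overlap between groups) and alternatives were chosen with earlier results of these data known. Scripts were tested on simulated data. Alternatives covered normalization, filter, pseudocounts of 1 and 64, variance model, array weights, a replicate block, samples left out and adjustment for the Actb gap. Figures were drawn with matplotlib 3.10.9.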

Additional observations from a re-analysis of the deposited data

How the results depend on the processing

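No member probe set passed the adjusted threshold under any of the 17 other settings run (smallest adjusted p 0.186), and of 255 member values under them 240 kept their direction. With median centring, no normalization between arrays, either other filter, either other pseudocount, no variance trend, array weights or the replicate block, all 15 kept their direction. The count of probe sets past the threshold was 4 in the whole table and 3 to 12 with single samples left out. The replicate block left it at 4, with a smallest member adjusted p of 0.578. With the block limma called 1525 probe sets at an unadjusted p under 0.05, against 1274 without it. Same-numbered samples had correlations of 0.144, 0.0274 and 0.0774 in their deviations. Every sample except probiotic sample 2 correlated best with its own number in the other group. The labels do not say that the numbers pair the samples, so the main fit was unpaired, and whether they do was not settled. The median member difference was 0.0134 without both sample 2 arrays and 0.12 adjusted for the Actb gap, and -0.557 to -0.132 with single samples left out.

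Without both sample 2 arrays the sign turned for Abcg1 1387054_at (0.0753), Abcg5 (0.244), Scarb1 1386956_at (0.16), Scd (0.814) and Pdzk1 (-0.286). Adjustment for the Actb gap turned it for Abca1 1382431_at (0.0408), Abcg1 1387054_at (0.246), Abcg5 (0.1996), Scarb1 (0.481 and 0.415), Srebf1 (0.0748), Fasn (0.0575), Scd (1.73), Lpcat3 (0.0857) and Pdzk1 (-0.389). Median centring gave 0.025 for Pltp, -0.0948 for Apoe and -0.11 for Apoa1, and no normalization gave -0.143 for Apoe and -0.158 for Apoa1. Array weights gave 0.0267 for Scd, 0.138 for Pltp, 0.0234 for Cyp7a1 and -0.0197 for Apoa1. The cause of these turns was not tested. With single samples left out, the ranges that crossed 0 were -1.07 to 0.311 for Abcg5, -0.354 to 0.399 for Abcg8, -0.0863 to 0.0936 for Abca1 1383355_at, -0.533 to 0.118 for Scarb1 1386956_at, -0.328 to 0.131 for Srebf1, -0.991 to 0.761 for Scd, -0.292 to 0.219 for Pltp, -0.0301 to 0.09005 for Apoe, -0.988 to 0.815 for Cyp7a1, -0.0623 to 0.0666 for Apoa1 and -0.242 to 0.712 for Pdzk1. The values came with no detection calls, so the signal filter stands in for background, and Nr1h2 1389854_at lay below it.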
